A study of Rattus norvegicus with 8 samples.

Results

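Heat shock chaperones of the cytosol and the mitochondrion were examined in rat atrium and ventricle. The set held 38 genes listed by name and role, with earlier results of these data known: the small heat shock proteins, cytosolic HSP70 and HSP110 chaperones, J proteins, BAG proteins, HSP90 with its co-chaperones, the mitochondrial chaperones, subunits of the cytosolic chaperonin TRiC and the heat shock transcription factors. Of these 38 genes, 35 had at least 1 probe set of their own, 53 probe sets in all, out of 31042 probe sets for 14217 genes on the array. The other 3 genes (Hspa1b, Hsp90aa1 and Hspa8) were read only by 4 probe sets that the annotation assigns to more than 1 gene, and they were kept out of the counts.

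The study compared the atrial appendage with the ventricular free wall of normal, untreated male Sprague-Dawley rats weighing 225 to 275 g, in order to relate gene expression to the endocrine function of atrial muscle. Tissue from 13 rats was combined into 4 atrial pools and 4 ventricular pools, each measured on 1 Affymetrix array. That both tissues came from the left side of the heart is stated in the study's methods and not in the sample labels, and which animals entered which pool is not given in the sources used here, so the spread between arrays is that between pools. Values are log2 signal intensities, differences are the atrial mean minus the ventricular mean on that scale, and a gene was called higher or lower in the atrium at an adjusted p under 0.05 (limma, with p-values of all 31042 probe sets adjusted by the Benjamini-Hochberg method). A gene with several probe sets was represented by the one with the highest mean over the 8 arrays.

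Molecular chaperones bind unfolded or partly folded proteins and keep them from aggregating until they fold or are degraded. Small heat shock proteins hold such clients without using ATP and are abundant in striated muscle, where several associate with desmin, titin and actin filaments. HSP70 passes clients through cycles of ATP hydrolysis driven by J proteins and of nucleotide exchange driven by HSP110 and BAG proteins, HSP90 matures kinases and steroid receptors, and the chaperonins HSP60 with HSP10 (in mitochondria) and TRiC (in the cytosol) enclose clients in a chamber. Many of these genes are transcribed through heat shock elements, short repeats of GAA units in alternating orientation that heat shock factors bind.

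Such elements were looked for in the RefSeq promoter windows of the GRCr8 assembly, which hold 300 bases, 250 before and 50 after a gene's start. Windows were listed for 31 of the 38 genes and not for Hspa1b, Hsp90aa1, Hspb2, St13, Cryab, Hsf1 and Dnajb4. An element of 3 units, spelled GAANNTTCNNGAA on one strand and TTCNNGAANNTTC on the other, was present in 7 of the 31 windows (22.6%), against 267 of all 33469 windows (0.798%). The 7 genes were Hsph1, Dnaja1, Chordc1, Cct4, Hspd1, Hspe1 and Hspa8. A pair of adjoining units in either order, which every 3-unit element contains, was present in 17 of the 31 windows (54.8%) and in 15.9% of all windows. The windows of 5 genes with the 3-unit element are shown first and then those of Hspb7 and Dnajb5, the members with the largest negative differences, which had none. Bag2 and Hspb1, the members with the largest positive differences, had none either and are not shown. The windows shown are written 5′ to 3′ on the gene's strand, with the 3-unit elements in capitals.
Hsph1 (chr12:10427118-10427417, plus strand): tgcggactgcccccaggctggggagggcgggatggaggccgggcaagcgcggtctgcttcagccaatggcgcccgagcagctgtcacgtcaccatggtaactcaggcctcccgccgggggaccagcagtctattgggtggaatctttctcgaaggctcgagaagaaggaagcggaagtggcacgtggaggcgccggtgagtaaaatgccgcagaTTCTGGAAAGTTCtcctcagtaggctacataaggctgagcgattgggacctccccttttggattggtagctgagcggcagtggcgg
Dnaja1 (chr5:60638154-60638453, plus strand): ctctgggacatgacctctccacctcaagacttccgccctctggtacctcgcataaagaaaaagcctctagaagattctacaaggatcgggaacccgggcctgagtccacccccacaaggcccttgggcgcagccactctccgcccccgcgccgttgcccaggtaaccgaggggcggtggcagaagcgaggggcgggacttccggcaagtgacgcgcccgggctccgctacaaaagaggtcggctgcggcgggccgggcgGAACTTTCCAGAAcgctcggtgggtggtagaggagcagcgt
Chordc1 (chr8:23650571-23650870, plus strand): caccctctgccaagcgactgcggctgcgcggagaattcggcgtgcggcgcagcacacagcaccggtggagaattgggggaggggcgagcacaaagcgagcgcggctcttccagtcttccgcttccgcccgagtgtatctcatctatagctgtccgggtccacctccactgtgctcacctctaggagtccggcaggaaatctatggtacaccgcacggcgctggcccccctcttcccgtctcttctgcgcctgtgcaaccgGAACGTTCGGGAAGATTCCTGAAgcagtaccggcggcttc
Cct4 (chr14:101192807-101193106, plus strand): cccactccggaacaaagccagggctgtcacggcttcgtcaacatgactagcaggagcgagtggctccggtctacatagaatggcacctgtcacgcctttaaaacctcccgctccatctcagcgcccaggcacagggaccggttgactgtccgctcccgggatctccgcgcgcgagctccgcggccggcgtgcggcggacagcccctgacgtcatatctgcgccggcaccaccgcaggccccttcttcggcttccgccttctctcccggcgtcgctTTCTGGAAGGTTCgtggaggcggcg
Hspe1 (chr9:64084077-64084376, plus strand): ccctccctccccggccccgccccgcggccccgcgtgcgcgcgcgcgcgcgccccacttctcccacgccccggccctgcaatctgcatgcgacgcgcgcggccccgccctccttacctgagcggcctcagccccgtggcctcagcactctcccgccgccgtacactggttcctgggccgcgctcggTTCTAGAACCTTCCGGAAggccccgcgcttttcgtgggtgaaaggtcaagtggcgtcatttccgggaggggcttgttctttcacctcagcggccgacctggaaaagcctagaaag
Hspb7 (chr5:159010509-159010808, plus strand): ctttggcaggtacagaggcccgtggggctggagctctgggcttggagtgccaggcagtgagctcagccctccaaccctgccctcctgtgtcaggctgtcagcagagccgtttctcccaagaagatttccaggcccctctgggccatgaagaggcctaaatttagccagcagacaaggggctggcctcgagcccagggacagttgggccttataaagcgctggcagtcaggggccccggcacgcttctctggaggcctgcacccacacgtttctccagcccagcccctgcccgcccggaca
Dnajb5 (chr5:61972456-61972755, plus strand): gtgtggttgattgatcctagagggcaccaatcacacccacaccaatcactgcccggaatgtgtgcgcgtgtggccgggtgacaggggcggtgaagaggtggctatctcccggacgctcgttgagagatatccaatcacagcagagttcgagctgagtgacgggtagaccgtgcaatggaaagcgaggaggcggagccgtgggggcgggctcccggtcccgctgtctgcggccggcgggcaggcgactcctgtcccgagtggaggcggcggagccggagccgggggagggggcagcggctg
In Hsph1 the element began 36 bases before the start, whereas in Cct4 and Dnaja1 it began 25 and 9 bases after it. Chordc1 held 3 overlapping elements in 1 run, the first beginning 10 bases after the start. Hspd1 and Hspe1, which encode HSP60 and HSP10 and lie next to each other on chromosome 9 on opposite strands, have windows that share 211 bases, and the same pair of overlapping elements was counted in both, which makes the 7 windows 6 separate stretches of DNA. A match says only that these letters stand in the window.

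Among the 35 genes with a probe set of their own, 19 were higher in the atrium and 8 were lower, and the test was not passed by another 8. Over all 14217 genes, 22.5% were called higher and 22.5% lower, and among the 2563 genes with a mean signal of at least 8, 33.3% were higher and 26.5% lower. Of the 28 chaperone genes that bright, 15 were higher and 6 were lower. The median difference of the 35 genes was 0.18, against -0.04 for all genes and 0.04 for genes with a mean of at least 8. Their summed signal on the linear scale, in which the brightest genes weigh most, went the other way. It was 35560 to 37502 on the atrial arrays and 37939 to 39510 on the ventricular arrays. Of the role groups, only the small heat shock proteins summed lower on every atrial array (14687 to 16760, against 19026 to 19849 in the ventricle). The cytosolic HSP70 and HSP110, J protein, HSP90 and TRiC groups summed higher on every atrial array, and the sums of the remaining groups overlapped. The median size of a difference regardless of sign was 0.31 for the chaperones, 0.20 for all genes and 0.25 for the bright ones. A difference of at least 0.5 in either direction was seen for 22.9% of the chaperones, 17.3% of all genes and 21.3% of the bright ones.

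Atrial and ventricular values did not overlap for 28 of the 35 genes. Every atrial array lay above every ventricular array for 20 of them, against 22.2% of all genes, and below for 8 of them, against 21.9% of all genes. At the thresholds of the study's methods, here an adjusted p under 0.0001 with a fold of at least 1.8, 2 of the 35 genes were called (Hspb7 and Dnajb5, both lower in the atrium), which is to be read beside 5.89% of all genes. For these 35 genes the SD between pools had a median of 0.0845 in the atrium and 0.0583 in the ventricle.

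**Figure D1:**
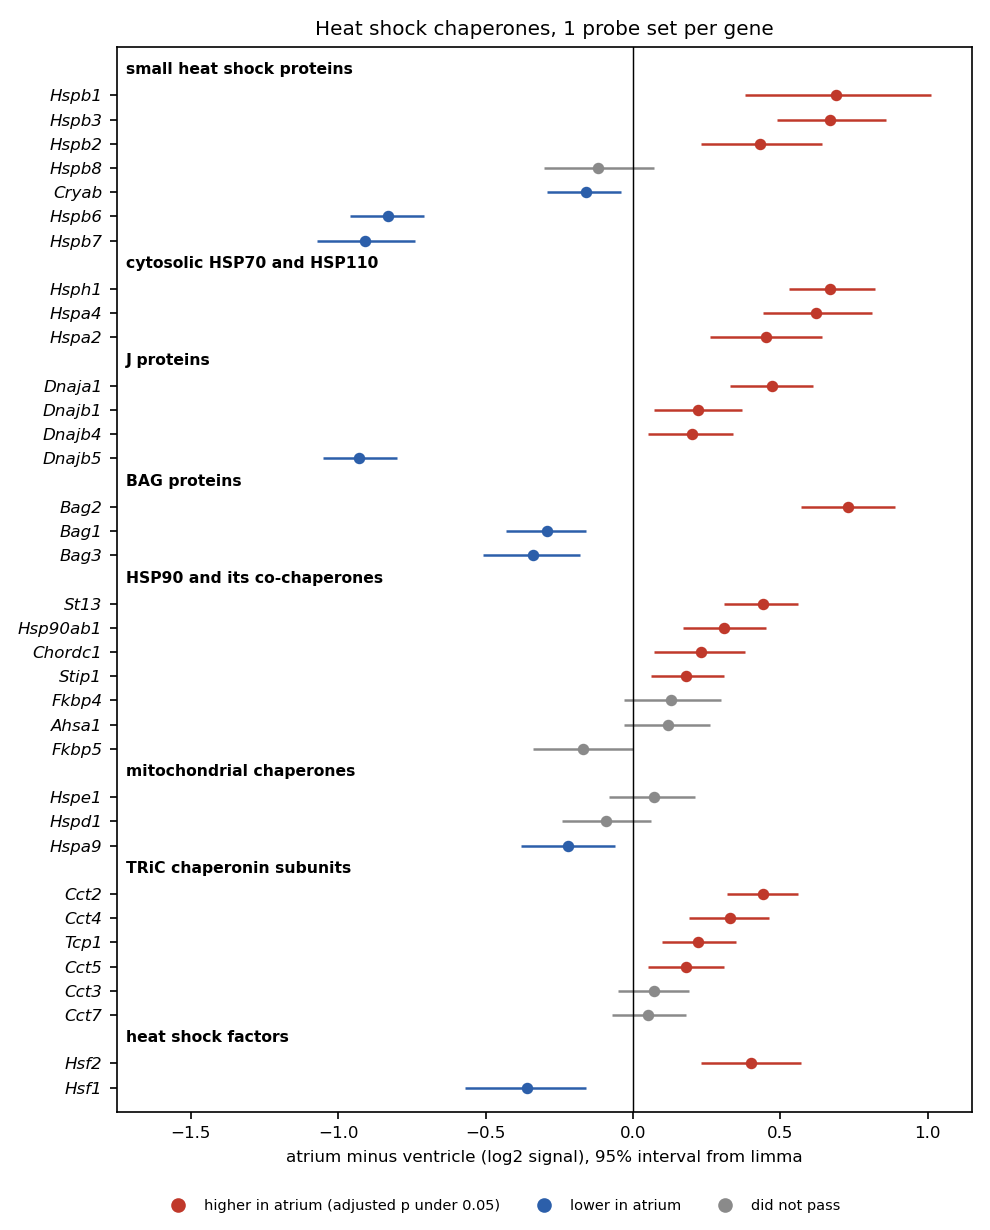
Difference between atrium and ventricle (horizontal axis, log2 signal, atrium minus ventricle) for the 35 chaperone genes, grouped by role, with 95% intervals from limma. Cytosolic HSP70 and HSP110 genes and TRiC subunits lie at or right of 0, while the small heat shock proteins spread from -0.91 for Hspb7 to 0.69 for Hspb1.

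The small heat shock proteins divided between the chambers, with 3 of 7 genes higher in the atrium (Hspb1, Hspb2 and Hspb3), 3 lower (Hspb6, Hspb7 and Cryab) and 1 (Hspb8) that did not pass on its brighter probe set. Their median difference was -0.12. Hspb1 encodes HSP27, a stress-inducible protein that binds actin filaments. Its log2 signal was 11.45, 11.11, 11.14 and 10.79 in the atrial pools, against 10.77, 10.37, 10.28 and 10.30 in the ventricular pools. The lowest atrial pool and the highest ventricular pool nearly met, and the SDs of 0.27 and 0.23 were the widest for a small heat shock protein in both tissues. The difference of 0.69 (SE 0.14, adjusted p = 0.003) corresponds to a 1.61 fold higher atrial signal.

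Hspb3 and Hspb2 encode muscle proteins that assemble with each other into one complex. Hspb3 signal was 9.98, 10.11, 9.92 and 9.78 in the atrium and 9.42, 9.21, 9.25 and 9.21 in the ventricle, a difference of 0.67 (SE 0.08, adjusted p = 9.2e-05) with no overlap. For Hspb2 the atrial mean was 8.63 ± 0.14 and the ventricular mean 8.19 ± 0.14 (SD, n = 4 each), a difference of 0.43 (adjusted p = 0.0037). Hspb2 stands next to Cryab in the RefSeq gene table (GRCr8), and in mammals these genes are arranged head to head. Cryab encodes alpha B-crystallin, the desmin and titin chaperone of cardiac muscle. Its signal averaged 12.62 ± 0.05 in the atrium and 12.78 ± 0.03 in the ventricle, a difference of -0.16 (adjusted p = 0.044), so the neighbours were called in opposite directions. The Cryab mean of 12.70 over the 8 arrays lay near the highest value of 13.77. The size of its difference is therefore not set against that of the dimmer Hspb2. The Cryab call was lost without any single pool (adjusted p from 0.056 to 0.1) and after further quantile normalization (adjusted p = 0.084), while that of Hspb2 held in each of these fits.

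Hspb6 and Hspb7 had the largest differences among the small heat shock proteins, and both were lower in the atrium. HSP20, the product of Hspb6, is phosphorylated by the cyclic nucleotide-dependent protein kinases in heart and smooth muscle. Hspb6 signal was 11.51, 11.43, 11.46 and 11.54 in the atrium against 12.32, 12.37, 12.29 and 12.29 in the ventricle. Within each chamber the pools lay close together, and the difference of -0.83 (SE 0.06, adjusted p = 1.3e-06) was a 1.78 fold higher ventricular signal. Hspb7, the cardiovascular small heat shock protein, binds the actin cross-linker filamin C.

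Its brighter probe set read 11.11, 11.12, 10.86 and 10.93 in the atrium, against 11.98, 11.93, 11.88 and 11.85 in the ventricle. The difference was -0.91 (SE 0.08, adjusted p = 5.4e-06, 1.87 fold higher in ventricle). A second Hspb7 probe set gave -0.83 (adjusted p = 8.3e-06), again with no overlap. Hspb8, the partner of Bag3 in the chaperone-assisted autophagy of damaged muscle proteins, was read differently by its probe sets. The brighter one averaged 9.85 ± 0.15 in the atrium and 9.96 ± 0.08 in the ventricle, a difference of -0.12 with a 95% interval of -0.30 to 0.07 (adjusted p = 0.29). The dimmer one gave 0.22 (adjusted p = 0.032), with values of the chambers overlapping.

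**Figure D2:**
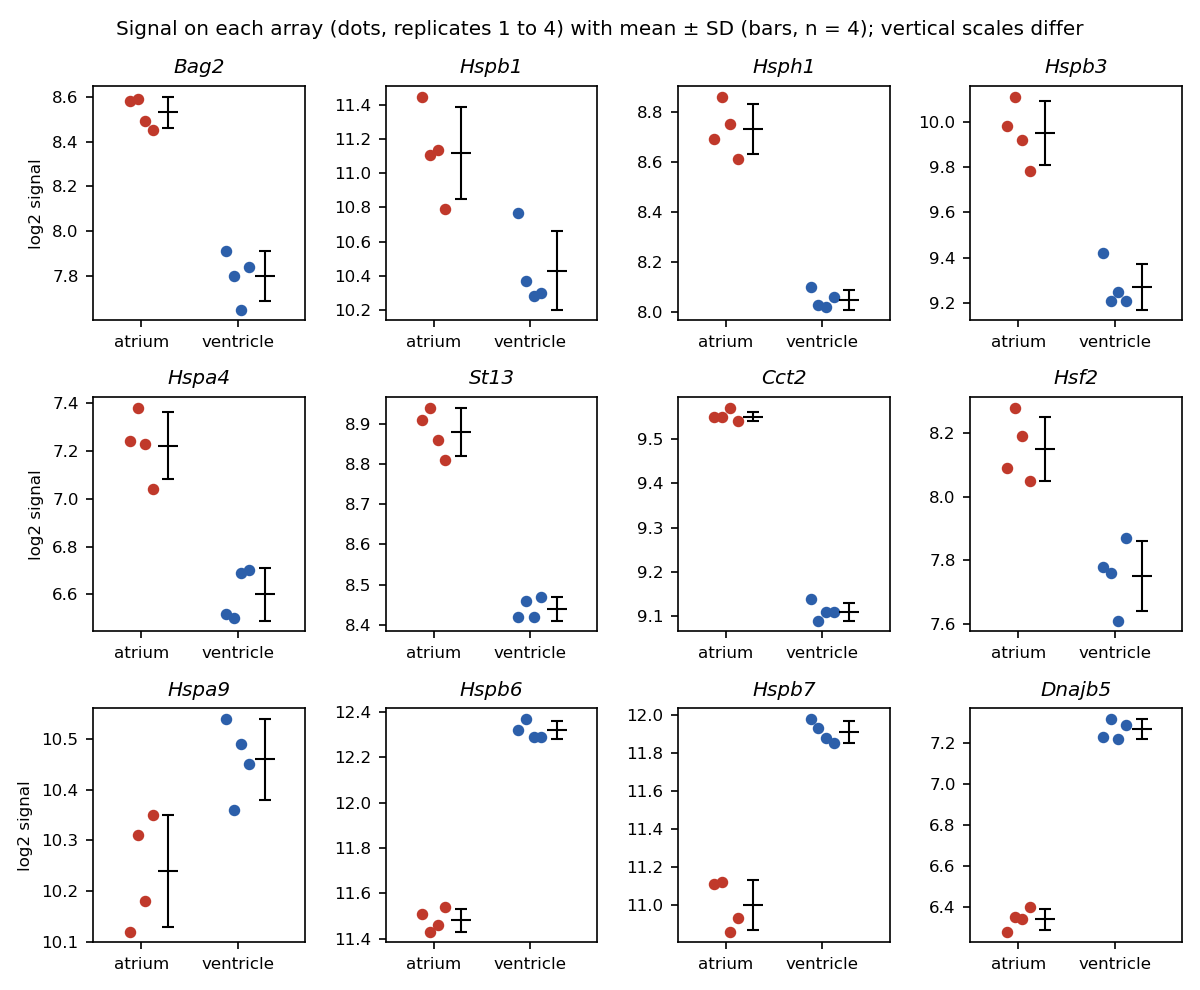
Log2 signal on each array for the 12 chaperone genes described array by array, with the atrium left and the ventricle right in each panel and the mean ± SD (n = 4) as a bar beside the dots. No panel has overlapping chambers, and Hspb1, Hspa9 and Hsf2 come closest to it.

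Cytosolic HSP70 and HSP110 genes were higher in the atrium in all 3 cases with a probe set of their own, with a median difference of 0.62. These were Hsph1 and Hspa4, of the HSP110 type, and Hspa2, an HSP70 with a mean under 4 in both chambers. Of 12 HSP70 and HSP110 genes and regulators outside the set, 3 were higher, 2 were lower and 7 did not pass, with a median difference of 0.02. Hsph1 encodes HSP105, an HSP110 chaperone that exchanges nucleotide on HSP70 and holds unfolded proteins. Hsph1 signal was 8.69, 8.86, 8.75 and 8.61 in the atrium, against 8.10, 8.03, 8.02 and 8.06 in the ventricle. All atrial pools lay well above the ventricular ones, with a difference of 0.67 (SE 0.07, adjusted p = 1.9e-05, 1.60 fold). On the second Hsph1 probe set the difference was 0.97 (SE 0.11, adjusted p = 4.5e-05, 1.97 fold), past the study's thresholds. Hspa4, an HSP110 relative with the same exchange activity, read 7.24, 7.38, 7.23 and 7.04 in the atrium, against 6.52, 6.50, 6.69 and 6.70 in the ventricle. Its difference was 0.62 (SE 0.08, adjusted p = 0.00019).

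Hspa2 encodes an HSP70 known mainly from male germ cells. Its level averaged 3.45 in the atrium and 3.00 in the ventricle, both under a log2 signal of 4 near the low end of the array. The difference of 0.45 passed the test (adjusted p = 0.0021), but its size is not set at such a level. For the stress-inducible Hspa1b, the shared probe set (also assigned to Hspa1a) gave 5.57, 5.91, 5.58 and 5.63 in the atrium and 5.13, 5.43, 5.36 and 5.15 in the ventricle, a difference of 0.41 (SE 0.10, adjusted p = 0.007). Hspa8, the constitutive HSC70, shared its probe set with Haus8l2, which averaged 12.10 ± 0.05 in the atrium and 11.97 ± 0.05 in the ventricle. That difference of 0.13 did not pass (adjusted p = 0.097), although the chambers did not overlap.

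Of the 4 J proteins, which deliver clients to HSP70 and trigger its ATPase, Dnaja1, Dnajb1 and Dnajb4 were higher in the atrium and Dnajb5 was lower. Dnajb5 had the largest difference of all 35 genes. Its brightest probe set read 6.28, 6.35, 6.34 and 6.40 in the atrium, against 7.23, 7.32, 7.22 and 7.29 in the ventricle. The chambers were separated by far more than the SD of 0.05 in each, with a difference of -0.93 (SE 0.06, adjusted p = 7.4e-07, 1.90 fold higher in ventricle). A second probe set gave -0.56 (adjusted p = 0.00025) and the dimmest -0.24 (adjusted p = 0.044), so all 3 Dnajb5 probe sets were called lower while the size differed between them.

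Dnaja1, a class A J protein, averaged 9.48 ± 0.08 in the atrium and 9.00 ± 0.05 in the ventricle. The difference was 0.47 (adjusted p = 0.00016), and a second probe set gave 0.53. Dnajb1, the classical HSP40, differed by 0.22 (adjusted p = 0.025) on the brighter probe set and by 0.38 (adjusted p = 0.00057) on the other. Dnajb4, a related class B protein, differed by 0.20 (adjusted p = 0.034). The Dnajb1 call was lost without atrial replicate 2 or 3 or ventricular replicate 1 or 2 (adjusted p from 0.054 to 0.076), and the Dnajb4 call without replicate 2 or 3 of either chamber (adjusted p from 0.074 to 0.091). Neither was called after cyclic loess (adjusted p = 0.086 for Dnajb1 and 0.085 for Dnajb4) or further quantile normalization (adjusted p = 0.11 for both).

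BAG proteins bind the ATPase domain of HSP70 and release its nucleotide. Bag2, known as an inhibitor of the HSP70-associated ubiquitin ligase CHIP, had the largest positive difference of all 35 genes. Its signal was 8.58, 8.59, 8.49 and 8.45 in the atrium, against 7.91, 7.80, 7.65 and 7.84 in the ventricle, a difference of 0.73 (SE 0.07, adjusted p = 1.9e-05, 1.66 fold). The other BAG genes were lower in the atrium. Bag1, which couples HSP70 to the proteasome, averaged 8.29 ± 0.08 in the atrium and 8.58 ± 0.03 in the ventricle (-0.29, adjusted p = 0.0035). Bag3, the autophagy cofactor whose loss causes cardiomyopathy, averaged 9.44 ± 0.13 in the atrium and 9.78 ± 0.06 in the ventricle (-0.34, adjusted p = 0.0043).

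In the HSP90 group 4 of 7 genes were higher in the atrium, none was lower and 3 did not pass, with a median difference of 0.18. By limma at an unadjusted p under 0.05 and by SAM, a permutation-based method that the study used, 1 was lower (Fkbp5). By SAM 5 were higher, with Ahsa1 called as well. St13 encodes HIP, which stabilises HSP70 bound to its client on the way to HSP90. St13 signal was 8.91, 8.94, 8.86 and 8.81 in the atrium, against 8.42, 8.46, 8.42 and 8.47 in the ventricle, a difference of 0.44 (SE 0.06, adjusted p = 0.00016). Its second probe set gave 0.67 (adjusted p = 5.4e-05), and the chambers did not overlap on either. Hsp90ab1, the constitutive cytosolic HSP90, averaged 11.50 ± 0.07 in the atrium and 11.19 ± 0.06 in the ventricle (0.31, adjusted p = 0.0026), but its second probe set did not pass (0.18, adjusted p = 0.073).

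Chordc1, an HSP90-binding protein also called morgana, differed by 0.23 (adjusted p = 0.028), and Stip1, the HOP adaptor that joins HSP70 to HSP90, by 0.18 (adjusted p = 0.026). Without replicate 2 or 3 of either chamber, neither call was made (adjusted p from 0.062 to 0.073 for Chordc1 and from 0.052 to 0.074 for Stip1). Both calls were also lost after cyclic loess (adjusted p = 0.083 for Chordc1 and 0.096 for Stip1) and further quantile normalization (adjusted p = 0.11 for Chordc1 and 0.13 for Stip1). Ahsa1, the activator of the HSP90 ATPase, had a difference of 0.12 with an interval of -0.03 to 0.26 (adjusted p = 0.18). Among the immunophilins of steroid receptor complexes, Fkbp4 had a difference of 0.13 with an interval of -0.03 to 0.30 (adjusted p = 0.18, but 0.034 without atrial replicate 4), and Fkbp5 one of -0.17 (adjusted p = 0.1). A dimmer Fkbp5 probe set gave -0.25 (adjusted p = 0.038), and the brighter one was called lower after cyclic loess (adjusted p = 0.045) or further quantile normalization (adjusted p = 0.021). Hsp90aa1, the stress-inducible HSP90, was read only by probe sets shared with the pseudogene Hsp90aa1-ps17, and their differences of 0.07 (adjusted p = 0.41) and 0.15 (adjusted p = 0.12) did not pass.

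The mitochondrial chaperones were close between the chambers. Hspd1 and Hspe1, whose products form the mitochondrial chaperonin and whose promoters overlap in the windows above, were read at 11.27 ± 0.12 and 11.35 ± 0.09 in the atrium, against 11.37 ± 0.02 and 11.28 ± 0.05 in the ventricle. The difference for Hspd1 was -0.09, with an interval of -0.24 to 0.06 (adjusted p = 0.31). For Hspe1 it was 0.07, with an interval of -0.08 to 0.21 (adjusted p = 0.44). Mortalin, the mitochondrial HSP70 that pulls imported proteins through the inner membrane, is the product of Hspa9.

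Hspa9 signal on the brightest probe set was 10.12, 10.31, 10.18 and 10.35 in the atrium, against 10.54, 10.36, 10.49 and 10.45 in the ventricle. The highest atrial pool and the lowest ventricular pool were nearly level. The difference of -0.22 (SE 0.07, adjusted p = 0.032) was not called on the second probe set (-0.13, adjusted p = 0.13), and it did not pass without atrial replicate 1 or 3 or ventricular replicate 1, 3 or 4 (adjusted p from 0.059 to 0.088). Both further Hspa9 probe sets averaged under 4 in both chambers.

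**Figure D3:**
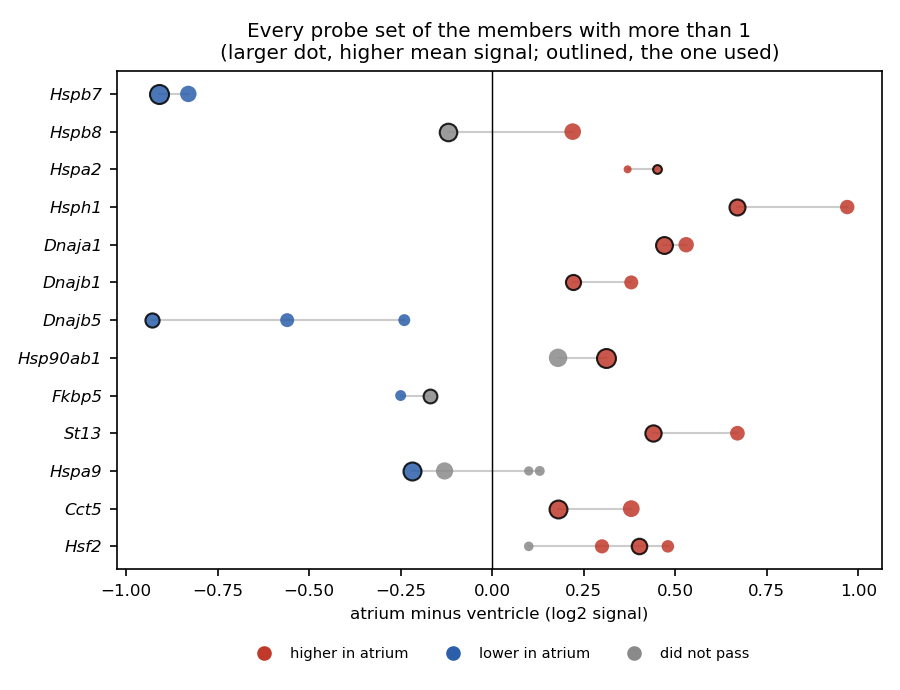
Difference of every probe set (horizontal axis, log2 signal, atrium minus ventricle) for the 13 chaperone genes with more than 1 probe set, with dot size rising with mean signal and the probe set used outlined. The probe sets of 11 genes lie on one side of 0, and those of Hspb8 and Hspa9 lie on both sides.

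TRiC folds actin, tubulin and other cytosolic proteins in a double ring of different subunits. Of the 6 subunits in the set, 4 were higher in the atrium (Cct2, Cct4, Cct5 and Tcp1) and 2 did not pass (Cct3 and Cct7), with a median difference of 0.20. Cct2 had the smallest spread of the genes described array by array, at 9.55, 9.55, 9.57 and 9.54 in the atrium, against 9.14, 9.09, 9.11 and 9.11 in the ventricle. The difference was 0.44 (SE 0.05, adjusted p = 7.8e-05, 1.36 fold). Cct4 averaged 10.20 ± 0.06 in the atrium and 9.87 ± 0.06 in the ventricle (0.33, adjusted p = 0.0016). Tcp1, the first described subunit, averaged 10.17 ± 0.04 in the atrium and 9.95 ± 0.04 in the ventricle (0.22, adjusted p = 0.009).

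Cct5 differed by 0.18 (adjusted p = 0.038) on the brighter probe set and by 0.38 (adjusted p = 0.00091) on the other. The first was not called without replicate 1, 2 or 3 of either chamber (adjusted p from 0.061 to 0.11), after cyclic loess (adjusted p = 0.094) or after further quantile normalization (adjusted p = 0.082). Cct3 gave 0.07, with an interval of -0.05 to 0.19 (adjusted p = 0.35). In Cct7 the atrial arrays, from 9.11 to 9.12, all lay above the ventricular ones, from 9.00 to 9.10, yet the difference of 0.05 did not pass (adjusted p = 0.45). The subunits Cct6a and Cct8, which stood outside the set and are named here after their values were seen, were higher by 0.23 (adjusted p = 0.023) and 0.29 (adjusted p = 0.0072). Differences between subunits were not tested.

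The heat shock factors were called in opposite directions. Hsf2, a factor also active in development, read 8.09, 8.28, 8.19 and 8.05 in the atrium, against 7.78, 7.76, 7.61 and 7.87 in the ventricle, a difference of 0.40 (SE 0.08, adjusted p = 0.002). Differences on its 3 other probe sets were 0.30 (adjusted p = 0.014), 0.48 (adjusted p = 0.014) and 0.10 (adjusted p = 0.32), the last at a mean under 4. Hsf1, the main activator of the heat shock response, averaged 6.17 ± 0.19 in the atrium and 6.54 ± 0.07 in the ventricle, a difference of -0.36 (adjusted p = 0.009) with no overlap.

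The 7 genes with a 3-unit heat shock element in the window comprised 4 that were higher in the atrium (Hsph1, Dnaja1, Chordc1 and Cct4), 2 that did not pass (Hspd1 and Hspe1) and Hspa8, read by a shared probe set; none was called lower. The 24 genes whose windows lacked one comprised 12 higher, 6 lower and 6 that did not pass. Over the whole array, 57 measured genes had such a window, and 19.3% of them were higher and 19.3% lower in the atrium, near the shares of all genes.

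**Figure D4:**
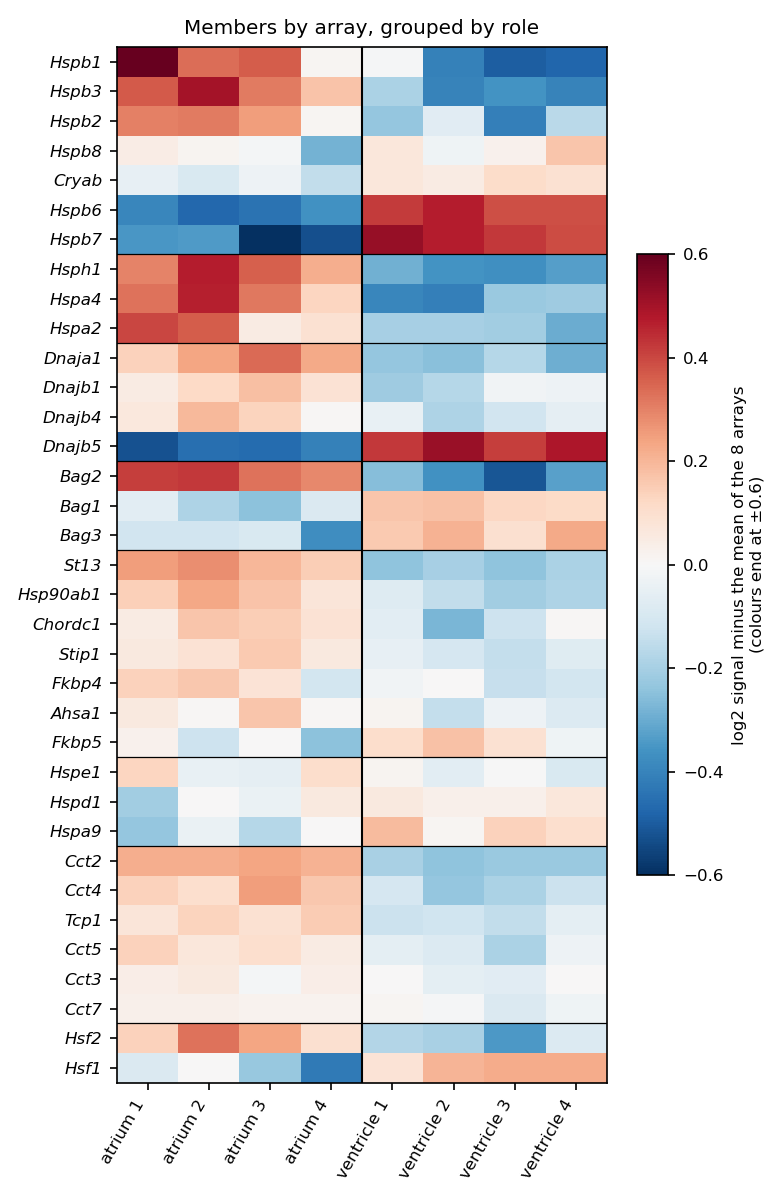
Deviation of each chaperone gene's log2 signal from its mean over the 8 arrays (colour, ending at ±0.6), with the atrial arrays left of the line and the ventricular arrays right of it. Within the atrium, replicate 2 is the highest array for 15 of 35 genes and replicate 4 the lowest for 19.

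The pools of 1 chamber did not vary evenly over the set. Atrial replicate 4 was the lowest atrial array for 19 of the 35 genes, with a median deviation from the atrial mean of -0.07 against -0.01 over all genes. Atrial replicate 2 was the highest for 15 genes, with a median deviation of 0.05 against 0.01. Among the ventricular arrays, replicate 1 was the highest for 14 genes and replicate 3 the lowest for 17, with median deviations of 0.03 and -0.03. Most of these shifts were small beside the differences between chambers described in full.

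The tissue labels were checked on marker genes. Atrial cardiomyocyte markers were higher in the atrium in 5 of 6 cases, and all 5 ventricular cardiomyocyte markers were lower. The exception among the atrial markers was Gja5, which was lower in the atrium (-1.17, adjusted p = 4.7e-06) with no overlap. The atrial pools differed in ventricular markers, since Myl2, the ventricular regulatory light chain, read 10.48, 4.32, 6.82 and 11.30 in atrial replicates 1 to 4, against 13.23 to 13.30 in the ventricle. Myl3 was also highest in atrial replicates 1 and 4 (9.93 and 10.43, against 12.82 to 13.03 in the ventricle). With atrial replicates 1 and 4 left out, a setting added after the values were seen, 18 chaperone genes were higher and 6 lower, 24 genes were called the same way in both fits, and 34 of 35 differences kept their sign, the exception being Hspe1. Cryab, Hspa9 and Cct5 were no longer called.

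In bulk tissue, fewer cells of a type and less RNA per cell cannot be told apart. Markers of other cell types also differed between the chambers. Summed over a list on the linear scale, the 6 smooth muscle and pericyte markers, all lower, reached 689 to 744 in the atrium and 1464 to 1492 in the ventricle, and the endothelial markers, 4 of 5 lower, 1359 to 1444 in the atrium and 2219 to 2497 in the ventricle. Among the smooth muscle and pericyte markers, Cnn1 averaged 3.30 in the atrium and 3.65 in the ventricle, near the low end of the array. Fibroblast markers, 6 of 7 higher, reached 13725 to 15976 in the atrium and 10862 to 12495 in the ventricle, and all 4 mesothelial markers were higher, at 866 to 1664 in the atrium against 46 to 63 in the ventricle, where Krt8 and Krt19 averaged 3.41 and 3.51. Of 5 measured leukocyte markers, 2 were lower (Ptprc, and Cd3e at means under 4) and 3 did not pass. The leukocyte sums were 842 to 1136 in the atrium and 1092 to 1337 in the ventricle. Of 5 measured adipocyte markers, 3 were higher (Adipoq, Plin1 and Cfd) and 1 was lower (Lpl), and their summed signal was 4385 to 7332 in the atrium and 5990 to 6475 in the ventricle. Adipoq, Plin1 and Cfd were highest in atrial replicate 4 (8.09, 9.03 and 8.73), the atrial array that was lowest for 19 of the 35 chaperone genes, without which 20 chaperone genes were higher and 7 lower. Of 12 immediate early genes, which respond to stimuli within minutes, Fos, Egr1 and Egr2 were higher and Klf4 lower. Fos, Egr1 and Egr2 were highest in atrial replicate 2 (8.37, 9.65 and 5.81), the atrial array that was highest for 15 of the 35 chaperone genes. Without it 14 chaperone genes were higher and 7 lower with a median difference of 0.18, and 14 were also higher without atrial replicate 3 or ventricular replicate 2. The part of these markers in the chaperone values was not tested.

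The remaining genes of the same pathways, 76 of 80 listed being measured, comprised 19 that were higher in the atrium, 23 that were lower and 34 that did not pass, with a median difference of -0.04. Over all genes 22.5% were higher and 22.5% lower, with the same median of -0.04. After further quantile normalization 14 of the 76 genes were higher and 28 lower, and by SAM 25 were higher and 31 lower. With the second probe set of a gene, 17 were higher and 15 lower. The largest positive differences were those of Pfdn5, a prefoldin subunit that hands clients to TRiC (0.67), Dnajc24, a J protein of diphthamide synthesis (0.60), Cacybp, a calcyclin-binding protein with an HSP90-binding fold (0.59), and Hspa1a, an inducible HSP70. On its own probe set Hspa1a averaged 7.57 ± 0.31 in the atrium and 6.99 ± 0.14 in the ventricle (0.58, adjusted p = 0.0067). The largest negative differences were those of Hspa12b (-0.95), an HSP70 relative known from endothelial cells, and of the mitochondrial genes Timm44 (-0.73), which anchors mortalin to the import channel, Spg7 (-0.66), a subunit of an inner membrane protease, and Clpx (-0.61), the unfoldase of the matrix protease ClpP.

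Of 16 other mitochondrial chaperones and proteases, none was higher in the atrium, 12 were lower and 4 did not pass, with a median difference of -0.40, where 22.5% of all genes were lower. None was higher at an unadjusted p under 0.05 in limma or by SAM, and 13 were lower at that unadjusted p and 14 by SAM. Besides the genes named above they included Grpel1, the nucleotide exchange factor of mortalin (-0.54, adjusted p = 0.00018), and Trap1, the mitochondrial HSP90 (-0.43, adjusted p = 0.0005). Of 7 markers of cardiomyocytes of both chambers, 1 was higher and 3 were lower, with a median difference of -0.11. Their means over the 8 arrays, from 11.81 for Ryr2 to 12.72 for Tnnt2, lay near the highest value of 13.77. The sizes of the differences are therefore not set against those of the dimmer mitochondrial genes. Cryab (12.70), Hspb6 (11.90) and the shared Hspa8 probe set (12.04) had means in that range, so the sizes of their differences carry the same limit. The part of cardiomyocyte content in the mitochondrial values was not tested. HSP90 co-chaperones outside the set comprised 5 higher and 1 lower of 16, and J proteins 6 higher and 4 lower of 19. TRiC and prefoldin subunits outside it comprised 4 higher and 2 lower of 8, and small heat shock proteins with HSF factors 1 higher and 2 lower of 5. These small counts are to be read beside the 22.5% of all genes called in each direction.

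**Figure D5:**
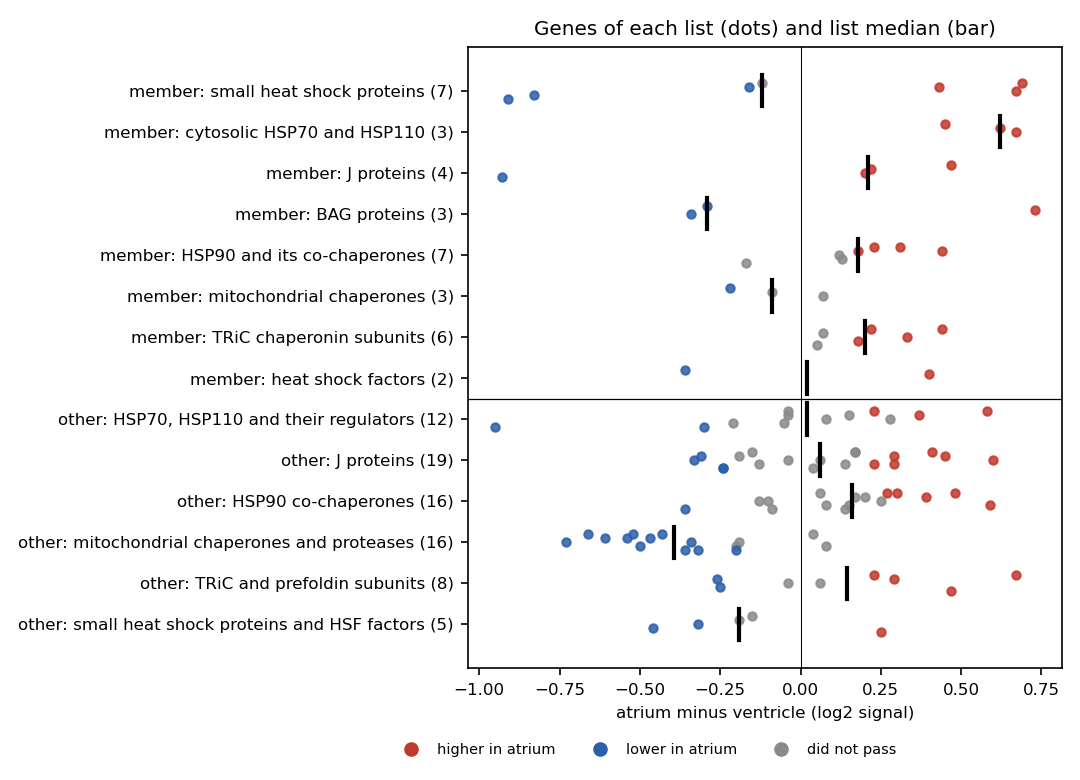
Difference of each gene (dots, horizontal axis, log2 signal, atrium minus ventricle) and the median of its list (bar), with the 35 chaperone genes by role above the line and the 76 other genes of the same pathways under it. The 16 other mitochondrial chaperones and proteases have a median of -0.40, the lowest of the lists plotted.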

How the data were processed

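The deposited values are log2 signal intensities, which the authors computed from the scanned arrays by RMA (background adjustment, quantile normalization and summary per probe set; version not given in the sources used here). They were used as deposited and run from 1.9 to 13.77, with array medians of 4.80 to 4.81. The precision is limited by the 4 pools per chamber. Genes were taken from the platform annotation, with symbols updated by gene ID: 20826 probe sets had 1 symbol, 436 several and 9780 none. Probe sets were compared with limma 3.58.1 in R 4.3.3. The members and lists were chosen with earlier results of these data known. All chaperone genes were named, and those called with a difference of at least 0.5, or with the largest difference of their role, were given array by array; of the other genes, the 4 largest called differences in each direction were named. Alternatives were SAM, written anew, other limma variances, a replicate block, other scalings, a filter on dim probe sets, other probe set rules, a fold of at least 1.5 and omission of pools. The script was tested on simulated data. Plots used matplotlib 3.10.9 (Python 3.11.15).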

Additional observations from a re-analysis of the deposited data

Results flagged for a closer look

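In 3 of 70 sets of 4 arrays of 1 gene in 1 chamber, a single array stood far from the others, where chance gives about 1 in 20. Bag3 read 9.24 in atrial replicate 4, against 9.50 to 9.52 in the other atrial arrays. Hsf1 read 6.44 in ventricular replicate 1, against 6.56 to 6.58 in the other ventricular arrays. Hspa2 read 2.93 in ventricular replicate 4, against 3.02 to 3.03 in the others, at a signal near the low end of the array.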

How the results depend on the processing

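None of the 12 genes given array by array changed sign under any alternative, and only Hspa9 lost its call, in 9 of 19 fits (-0.03, adjusted p = 0.68, as the mean of its probe sets). Over 15 settings that keep the same probe sets (other fits, scalings or filters, or 1 pool left out), 25 of 35 genes kept their call or lack of one in each. With single pools left out, 14 to 20 genes were higher and 6 to 7 lower. The median difference fell to 0.14 after cyclic loess and 0.13 after further quantile normalization, with 14 genes higher in each and 9 and 8 lower, while the median of all genes was -0.01 and -0.03, and that of genes with a mean of at least 8 was -0.02 and -0.03. Dnajb1, Dnajb4, Chordc1, Stip1 and Cct5 lost their calls under both scalings, Cryab under the second, and Fkbp5 gained one under both. At the study's thresholds 1 gene passed with the mean of probe sets, 1 with the second probe set and 6 with a fold of at least 1.5. With the second probe set, 15 other chaperone genes were lower. Counting the shared probe sets, a choice made after the values were seen, gave 20 higher and 8 lower. Of genes that did not pass, Hspe1 was -0.01 without atrial replicates 1 and 4. With the replicate block, 15 genes were higher and 6 lower. Deviations of same-numbered pools correlated at 0.134 and 0.155 for replicates 1 and 2, and at -0.148 and -0.188 for replicates 3 and 4. The highest correlations were those of atrial replicate 4 with ventricular replicate 3 (0.278) and atrial replicate 3 with ventricular replicate 4 (0.225). Whether pools share animals is not given, so the block may not follow a true pairing. Signal near the low end of the array limits Hspa2.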
